A study of Mus musculus with 9 samples.

Results

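The genes described here make the phospholipids of the endoplasmic reticulum (ER) membrane. They are 10 of the 54532 genes in the deposited table, chosen by name for their roles. The choline kinases Chka and Chkb, the cytidylyl transferases Pcyt1a and Pcyt2 and the final transferases Chpt1 and Cept1 belong to the CDP-choline and CDP-ethanolamine routes. Pemt methylates phosphatidylethanolamine, Ptdss1 makes phosphatidylserine, and Lpin1 and Lpin2 are lipins, which make diacylglycerol.

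Phosphatidylcholine and phosphatidylethanolamine are the main lipids of the ER membrane. In the CDP-choline route a kinase phosphorylates choline, a cytidylyl transferase activates it as CDP-choline, and a transferase joins it to diacylglycerol. The CDP-ethanolamine route has the same 3 steps. Hepatocytes are known for a further source of phosphatidylcholine, the methylation of phosphatidylethanolamine by Pemt. Under ER stress cells can enlarge the ER membrane, and the transcription factors XBP1 and ATF6 are known to raise its lipid synthesis.

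RNA was sequenced from primary hepatocytes of C57BL/6 mice in 9 libraries, 3 in each of 3 groups. WT DMSO cells came from mice with floxed COX-2 alleles and no Cre, held in 1% serum for 2 hours and then in the vehicle DMSO for 24 hours. WT Tu cells had the same genotype and received 6 μmol/L tunicamycin for 24 hours, a drug that blocks N-glycosylation and so fills the ER with misfolded protein. CKO Tu cells carried the same floxed alleles together with Cre under the albumin promoter, which is active in hepatocytes, and received the same tunicamycin treatment. COX-2, the product of Ptgs2, starts prostaglandin synthesis. There was no knockout group with DMSO, so whether the response to tunicamycin differed between the genotypes could not be tested. The labels do not say whether the replicates of a group were separate animals, so p-values reflect only how these libraries varied, which may be technical.

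Libraries held between 14897358 and 16001484 assigned fragments. Ptgs2 was near the limit of detection, with 21 fragments summed over the WT DMSO libraries, 18 over WT Tu and 4 over CKO Tu. The ER chaperone gene Hspa5 was 9.22 times and the stress regulator gene Ddit3 10.5 times as high in WT Tu as in WT DMSO (limma adjusted p = 1.77e-08 and 9.44e-07). Replicate 1 of WT Tu lay away from its group on principal component 2 (-36.6, the other two libraries at -19.6) and had the highest mitochondrial share, 6.87% of fragments, so member values are also given without it. The labels call the mice male, yet Xist, expressed from the silenced X chromosome of female cells, had 20659 to 33657 fragments in each of the 6 WT libraries and at most 3 in CKO Tu, whereas 4 Y-linked genes summed to 0 in WT and to 3486 to 3633 in CKO Tu. Genotype and this sex-linked pattern cannot be told apart in any comparison of CKO Tu with WT. The 10 members lie on autosomes.

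Hepatocyte markers (Alb, Ttr, Apoa1, Hnf4a, Cps1, Tat and Asgr1) were all present. Their summed levels were 15634 to 17362 FPKM in WT DMSO, 15509 to 16897 in WT Tu and 13461 to 14308 in CKO Tu. In CKO Tu against WT Tu 6 of these 7 genes were higher and 1 was lower. Of all genes tested 18.7% were higher and 19.6% lower there. The lower gene was Alb, which made up most of the sum, with means of 14277 FPKM in WT Tu and 10276 in CKO Tu. Summed levels of 7 endothelial markers were 9.43 to 10.6 FPKM in WT DMSO, 3.18 to 4.74 in WT Tu, and 2.83 to 3.24 with CKO Tu. Those of 6 cholangiocyte markers were 22.7 to 25.9, 22.8 to 24.3 and 34.3 to 38.3 FPKM. Nearly all of this was Spp1 (mean 16.7 FPKM in WT Tu and 27.2 in CKO Tu) and Sox9 (5.57 and 8.25), while Epcam went from 0.722 to 0.359. The sums of 6 stellate cell markers were 0.254 to 0.491, 0.241 to 0.412 and 1.76 to 2.24 FPKM, and the higher sum in CKO Tu was that of Reln (0.121 FPKM in WT Tu and 1.90 in CKO Tu), with the other 5 below 0.1 FPKM on average in CKO Tu. The sums of 7 Kupffer cell markers were 74.0 to 91.1, 96.8 to 115 and 92.5 to 107 FPKM, nearly all of it Cd68. The other 6 were below 1 FPKM in every library, and from WT DMSO to WT Tu the means of Csf1r, Mpeg1 and Adgre1 went from 0.297 to 0.112, from 0.597 to 0.230 and from 0.155 to 0.0462 FPKM. The 6 lymphocyte and neutrophil markers summed to at most 0.558 FPKM in any library. The part of these shifts in the results below was not tested. In such bulk RNA, fewer cells of a type and less RNA per cell cannot be told apart.

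In wild-type cells tunicamycin was followed by higher RNA of 1 gene at each step of the CDP-choline route: Chka, Pcyt1a and Cept1 rose, by 0.63 ± 0.06, 0.55 ± 0.07 and 0.29 ± 0.07 (SE) on the log2(FPKM + 1) scale. Cept1 also serves the CDP-ethanolamine route, and its call was made in 19 of 22 alternative analyses. No member passed the test in the lower direction. Of the 10 members 9 reached 1 FPKM in 3 or more libraries and were tested, and 3 of these 9 were higher (33.3%). Over all 11858 genes tested, 33.6% passed an adjusted p of 0.05 in this comparison, 17.7% higher and 15.9% lower. The share of members called was thus close to that of all genes. The median change of the 9 members was 0.05, beside 0.00 for all genes.

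In tunicamycin-treated knockout cells against treated wild-type cells, Lpin2, Pcyt2 and Ptdss1 were higher, by 1.20 ± 0.12, 0.68 ± 0.09 and 0.21 ± 0.06, and Chka was lower, by -0.85 ± 0.06. Thus 3 of the 9 members were higher and 1 was lower, where 38.3% of all genes passed the test, 18.7% higher and 19.6% lower. The members' median was 0.19, beside 0.00 for all genes. Against WT DMSO, the CKO Tu libraries had 4 members higher (Pcyt1a, Pcyt2, Pemt and Lpin2) and 1 lower (Chka), and 49.5% of all genes passed, 25.3% higher and 24.2% lower. The median in that comparison was 0.30 for the members and 0.00 for all genes. The 3 comparisons share libraries, so their values stand side by side and are not independent.

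**Figure D1:**
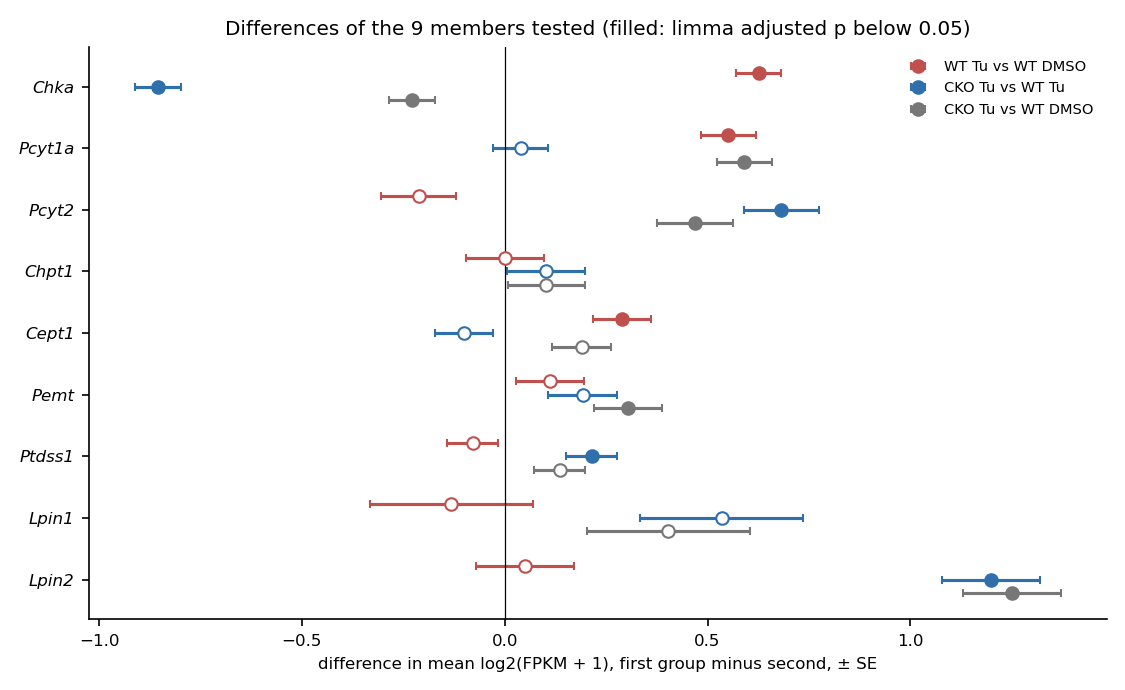
Differences of the 9 members tested, as mean log2(FPKM + 1) of the first group minus that of the second; bars are limma standard errors and filled points had an adjusted p below 0.05. Chka lies at 0.63 in WT Tu against WT DMSO and at -0.85 in CKO Tu against WT Tu, and Lpin2 lies near 1.2 in both comparisons of CKO Tu.

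FPKM is scaled to gene length, so the levels of the members can be ordered. In WT DMSO the mean was highest for Chka (39.1 FPKM), followed by Pemt (25.5), Lpin2 (21.6), Cept1 (17.0), Pcyt2 (15.8), Ptdss1 (10.5), Pcyt1a (7.92), Lpin1 (3.45), Chpt1 (3.02) and Chkb (0.341). In this order the libraries of Pemt overlapped those of Lpin2, those of Cept1 overlapped those of Pcyt2, and those of Lpin1 overlapped those of Chpt1; the other neighbours did not overlap. In CKO Tu the order began with Lpin2 (52.8 FPKM), then Chka (33.3) and Pemt (31.7), and the libraries of the last pair overlapped.

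**Figure D2:**
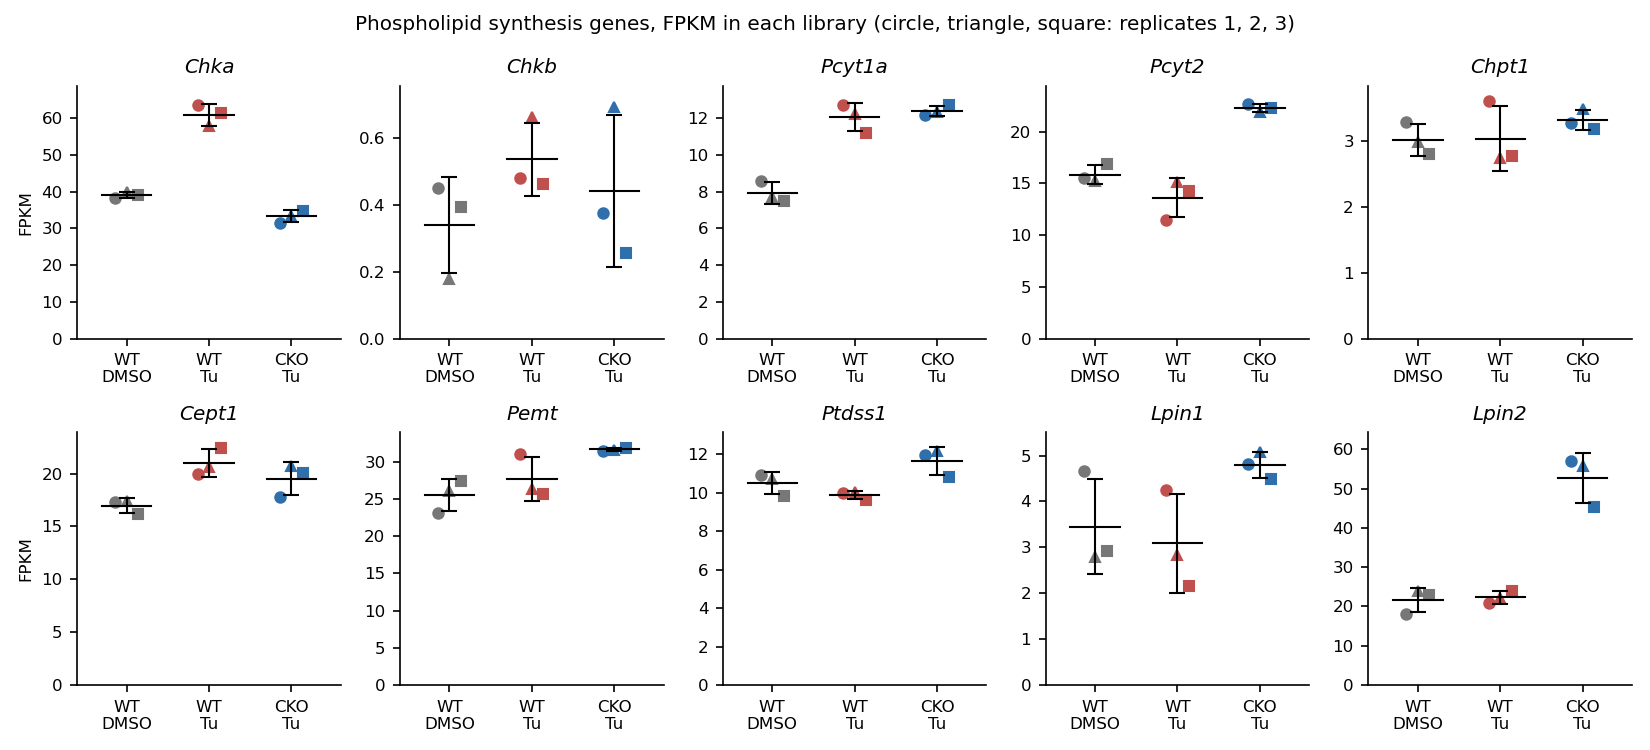
FPKM of the 10 members in each of the 9 libraries; every panel has its own axis from 0, points are libraries, and black lines are the mean and SD of 3 libraries. Chka was highest in WT Tu (57.8 to 63.7 FPKM) and Lpin2 in CKO Tu (45.4 to 57.1 FPKM), each without overlap with the other groups. Between pairs of groups 46.7% to 63.0% of all genes tested did not overlap.

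Choline kinases phosphorylate choline, the entry to the CDP-choline route. Chka (ENSMUSG00000024843, chr19:3851773-3894369 in GRCm38, plus strand) had 38.4, 39.8 and 39.1 FPKM in WT DMSO. Its values were 63.7, 57.8 and 61.4 FPKM in WT Tu libraries and 31.5, 33.5 and 34.8 FPKM in CKO Tu. The groups did not overlap, with WT Tu highest and CKO Tu lowest. Lack of overlap is common in these data. It held for 46.7% of all genes tested between WT Tu and WT DMSO. The share was 51.2% between CKO Tu and WT Tu and 63.0% between CKO Tu and WT DMSO. The mean in WT Tu was 1.56 times that in WT DMSO, a log2 difference of 0.63 with a 95% interval of 0.50 to 0.75 (limma adjusted p = 6.59e-05). CKO Tu stood at 0.546 times the mean of WT Tu, a difference of -0.85 with an interval of -0.98 to -0.73 (limma adjusted p = 1.37e-05). Treated knockout cells also had less Chka RNA than untreated wild-type cells, by -0.23 ± 0.06 (limma adjusted p = 0.00894). Each of these calls was also made in 22 of 22 alternative analyses, and without WT Tu replicate 1 the first 2 differences were 0.59 and -0.82.

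Chka and Pcyt1a had the largest rises of the members in WT Tu, and the 250 bases before their start sites are shown for that reason, with those of Lpin2 given further on. The sequences are from RefSeq (build GRCm38.p6), 5′ to 3′ on the gene's strand. Those of Chka are chr19:3851523-3851772, plus strand, with capitals marking CCAAT boxes, and those of Pcyt1a are chr16:32430671-32430920, plus strand, with capitals marking a match to the sterol element TCACNCCAC.
Chka: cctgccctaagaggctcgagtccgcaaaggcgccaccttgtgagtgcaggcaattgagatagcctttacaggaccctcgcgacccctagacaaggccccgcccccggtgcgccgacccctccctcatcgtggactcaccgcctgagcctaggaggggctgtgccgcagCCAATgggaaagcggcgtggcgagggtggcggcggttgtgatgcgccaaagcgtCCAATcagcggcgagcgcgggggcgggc
Pcyt1a: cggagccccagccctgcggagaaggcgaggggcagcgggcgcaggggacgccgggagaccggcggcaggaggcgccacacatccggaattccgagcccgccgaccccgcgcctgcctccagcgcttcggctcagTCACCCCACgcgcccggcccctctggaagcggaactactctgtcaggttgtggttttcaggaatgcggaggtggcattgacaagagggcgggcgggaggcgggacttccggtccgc
Chka has CCAAT boxes starting 82 and 28 bases before its start site. In Pcyt1a the match TCACCCCAC starts 116 bases before the start site, and a second, overlapping window of the gene holds the same site.

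Of the 10 members 8 had such RefSeq windows, 15 windows in all, each of 250 bases before and 50 after a start site. Pcyt2 and Ptdss1 had none and were not searched. Motifs were searched on both strands. The ER stress response element (ERSE: CCAAT, 9 bases of any kind, then CCACG), bound by ATF6, was in none of the 8 members and in 0.119% of all 32851 windows. Hspa5 has one, starting 65 bases before its start site. The core TGACGTGG of the unfolded protein response element was also in none of the 8 and in 0.676% of all windows. The sterol element was in 2 of the 15 windows and in 1.242% of all windows. Both were overlapping windows of Pcyt1a that hold the same site, so they are not separate matches. The CCAAT box, which is also the first part of ERSE, was in 6 of the 15 windows (40.0%) and in 37.408% of all windows. A match describes letters and is no evidence of binding, and no match says only that the letters are not in these windows.

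Chkb (ENSMUSG00000022617, chr15:89426360-89429908, minus strand) was below the filter. It had 0.451, 0.178 and 0.393 FPKM in WT DMSO libraries, 0.482, 0.664 and 0.465 in those of WT Tu, and 0.375, 0.695 and 0.257 in those of CKO Tu. Summed fragments were 50, 74 and 63. The ratio of WT Tu to WT DMSO, scaled by library size, was 1.59 with a 95% exact binomial interval of 1.10 to 2.33, which covers counting error only, and the exact two-sided permutation test gave p = 0.1, the smallest that 3 against 3 libraries allow. Chkb shares 50.7% of its exonic bases with the readthrough gene Gm44502 on the same strand, which is at 0 in all libraries, so the counting of both is uncertain. Chka made up 99.1% ± 0.37 (SD, n = 3) of choline kinase FPKM in WT DMSO, 99.1% ± 0.22 in WT Tu and 98.7% ± 0.66 in CKO Tu.

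Cytidylyl transferases catalyse the regulated step of each route, Pcyt1a for choline and Pcyt2 for ethanolamine. Pcyt1a (ENSMUSG00000005615, chr16:32430921-32475070, plus strand) had 8.59, 7.69 and 7.47 FPKM in WT DMSO. With tunicamycin it had 12.7, 12.2 and 11.2 FPKM in WT and 12.2, 12.4 and 12.7 FPKM in CKO cells. Both treated groups lay above the untreated one and overlapped each other. The increase was 0.55 (95% interval 0.40 to 0.70) in WT Tu and 0.59 (0.44 to 0.74) in CKO Tu against WT DMSO (limma adjusted p = 3.84e-04 and 1.20e-04). The difference between the treated groups was 0.04, with an interval of -0.11 to 0.19 (limma adjusted p = 0.682). The 2 increases were called in all 22 alternatives, and the increase in WT Tu was 0.51 without WT Tu replicate 1.

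Pcyt2 (ENSMUSG00000025137, chr11:120610087-120617936, minus strand) had 15.5, 15.2 and 16.9 FPKM in WT DMSO libraries and 11.5, 15.1 and 14.3 FPKM in WT Tu libraries. CKO Tu libraries had 22.7, 21.9 and 22.3 FPKM, above every WT library. CKO Tu exceeded WT Tu by 0.68 (95% interval 0.47 to 0.89; limma adjusted p = 6.26e-04) and WT DMSO by 0.47 ± 0.09 (limma adjusted p = 0.00276). Both differences passed in 22 of 22 alternatives, and without WT Tu replicate 1 the first was 0.57. All WT Tu libraries were below all WT DMSO libraries, but the difference of -0.21 ± 0.09 did not pass (limma adjusted p = 0.110). It passed with upper-quartile scaling, quantile normalization and scaling to total fragments and without WT Tu replicate 2 (-0.26, -0.27, -0.34 and -0.29). Without WT Tu replicate 1 it was -0.10 (limma adjusted p = 0.209), and removal of a trend on GC content turned it to 0.01 (limma adjusted p = 0.935).

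Ratios within a library do not depend on its scaling, but a trend on GC content can still shift them. Pcyt2 has 59.3% GC and Pcyt1a 48.6%, and the ratios were not recomputed after removal of that trend. The log2 ratio of Pcyt2 to Pcyt1a FPKM was 0.85, 0.98 and 1.18 in WT DMSO libraries, -0.15, 0.31 and 0.35 in those of WT Tu, and 0.90, 0.83 and 0.81 in those of CKO Tu. WT Tu was lowest without overlap, and the other groups overlapped. The mean fell by 0.84 from WT DMSO to WT Tu and was 0.68 higher in CKO Tu than in WT Tu. Each gave an exact two-sided permutation p = 0.1, the smallest possible, or 0.25 after Benjamini-Hochberg adjustment over 15 ratio tests, so no ratio could pass a threshold of 0.05.

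**Figure D3:**
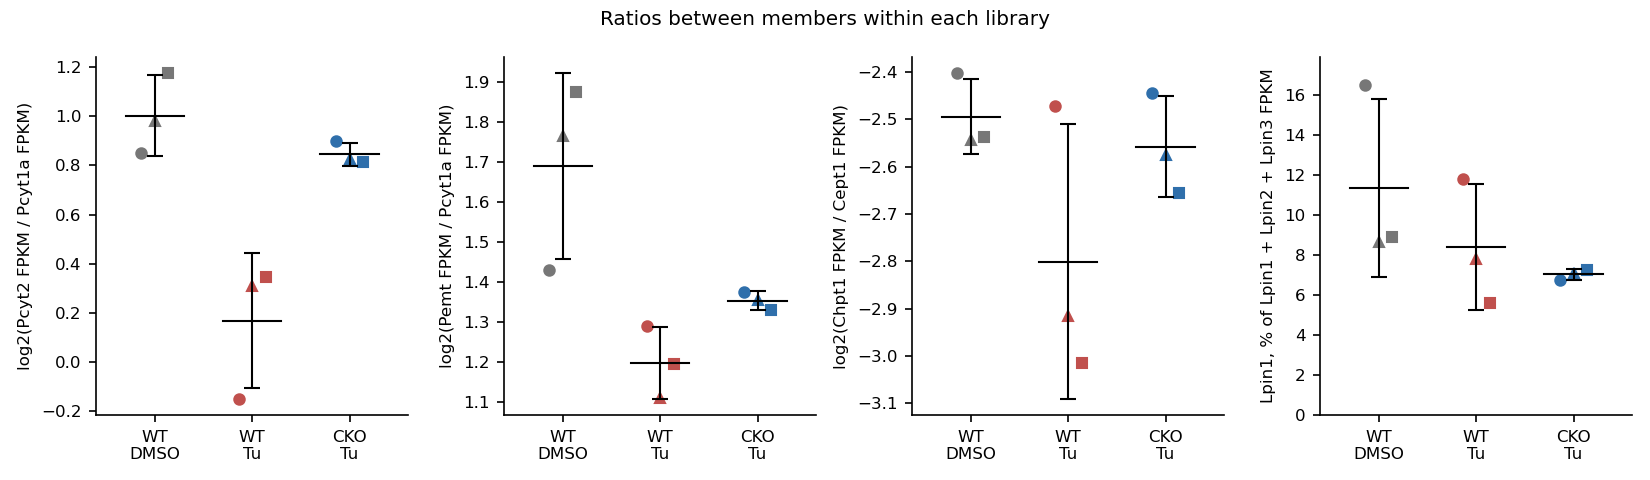
Ratios between members within each library, as log2 ratios of FPKM (3 panels, axes not starting at 0) and as the Lpin1 share of lipin FPKM in percent; points are libraries, lines the mean and SD of 3. The Pcyt2 to Pcyt1a ratio is lowest in WT Tu, from -0.15 to 0.35, and the Pemt to Pcyt1a ratio is highest in WT DMSO, from 1.43 to 1.87.

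The final transferases join the activated base to diacylglycerol. Cept1, which accepts choline and ethanolamine and lies in the ER, is at chr3:106502260-106547802 on the minus strand (ENSMUSG00000040774). It had 17.3, 17.4 and 16.2 FPKM in WT DMSO libraries, 19.9, 20.6 and 22.4 in those of WT Tu, and 17.8, 20.7 and 20.1 in those of CKO Tu. Both treated groups lay above WT DMSO and overlapped each other. The rise in WT Tu was 0.29 (95% interval 0.13 to 0.45; limma adjusted p = 0.0138) and was 0.32 without WT Tu replicate 1. This call was lost with scaling to total fragments (0.16, limma adjusted p = 0.116), after removal of a GC trend (0.13, limma adjusted p = 0.294) and without WT DMSO replicate 3 (limma adjusted p = 0.0546). CKO Tu differed from WT DMSO by 0.19 ± 0.07, which did not pass (limma adjusted p = 0.0543), although it did in 5 alternatives, among them those without WT Tu replicate 1 and without CKO Tu replicate 1. On the opposite strand Dennd2d covers 24.7% of the exonic bases of Cept1 with 26 to 50 fragments of its own, and the strand setting of the counting is not given in the sources used here.

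Chpt1, the choline-specific transferase of the Golgi, is at chr10:88452745-88504073 on the minus strand (ENSMUSG00000060002). It had 3.28, 2.98 and 2.79 FPKM in WT DMSO libraries, 3.60, 2.73 and 2.77 in those of WT Tu, and 3.27, 3.48 and 3.18 in those of CKO Tu. The groups overlapped in all 3 comparisons. Chpt1 differed by 0.00 between WT Tu and WT DMSO, with a 95% interval of -0.22 to 0.22, and by 0.10 between CKO Tu and WT Tu, with an interval of -0.12 to 0.32. After removal of a GC trend it was lower in WT Tu, by -0.20 (limma adjusted p = 0.0446). The log2 ratio of Chpt1 to Cept1 was -2.49 ± 0.08, -2.80 ± 0.29 and -2.56 ± 0.11 (SD, n = 3), overlapping in every pair of groups (smallest exact permutation p = 0.3).

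Pemt (ENSMUSG00000000301, chr11:59970614-60046489, minus strand) makes phosphatidylcholine by 3 methylations of phosphatidylethanolamine and is typical of hepatocytes. It had 23.1, 26.1 and 27.4 FPKM in WT DMSO libraries, 31.1, 26.4 and 25.7 in those of WT Tu, and 31.5, 31.6 and 31.9 in those of CKO Tu. CKO Tu lay above all WT libraries, and WT Tu replicate 1 was close below it. Pemt was higher in CKO Tu than in WT DMSO by 0.30 ± 0.08 (limma adjusted p = 0.0153). This call was lost with upper-quartile scaling (limma adjusted p = 0.0578) and without WT DMSO replicate 1 (limma adjusted p = 0.0502). The difference from WT Tu was 0.19 ± 0.08 and did not pass (limma adjusted p = 0.104), but it did in 3 of 22 alternatives, among them without WT Tu replicate 1 (0.28, limma adjusted p = 0.0127).

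Set against Pcyt1a, the regulated step of the other route to phosphatidylcholine, Pemt was relatively highest in untreated cells. The log2 ratio of Pemt to Pcyt1a FPKM was 1.43, 1.76 and 1.87 in WT DMSO libraries, 1.29, 1.11 and 1.19 in those of WT Tu, and 1.37, 1.35 and 1.33 in those of CKO Tu. No pair of groups overlapped. The exact two-sided permutation p was 0.1 in each comparison (0.25 adjusted over the 15 ratio tests).

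Ptdss1 exchanges the choline of phosphatidylcholine for serine and lies at chr13:66932830-66998401 on the plus strand (ENSMUSG00000021518). It had 10.9, 10.7 and 9.84 FPKM in WT DMSO libraries, 9.98, 10.02 and 9.62 in those of WT Tu, and 11.9, 12.2 and 10.8 in those of CKO Tu. CKO Tu was above WT Tu in every library, and both overlapped WT DMSO. The difference of 0.21 ± 0.06 between the treated groups passed (limma adjusted p = 0.0264), as it did without WT Tu replicate 1 (0.22, limma adjusted p = 0.0326). It did not pass without WT Tu replicate 2 or 3 or without CKO Tu replicate 1 or 2 (limma adjusted p = 0.0525, 0.0739, 0.0893 and 0.0982). WT Tu and WT DMSO differed by -0.08 ± 0.06 (limma adjusted p = 0.372), a difference that passed with scaling to total fragments (-0.20, limma adjusted p = 0.0378). Mterf3 covers 5.33% of the exonic bases of Ptdss1 on the opposite strand.

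Lipins dephosphorylate phosphatidate to diacylglycerol, the lipid to which the final transferases add choline or ethanolamine, and can also act in the nucleus on transcription. Lpin2, the lipin with the highest FPKM in these cells, is at chr17:71182560-71249817 on the plus strand (ENSMUSG00000024052). It had 18.1, 23.9 and 23.0 FPKM in WT DMSO libraries and 20.8, 22.1 and 24.0 in WT Tu libraries, which overlapped. In CKO Tu it had 57.1, 55.7 and 45.4 FPKM, each above all WT libraries. The CKO Tu mean was 2.36 times that of WT Tu, a difference of 1.20 with a 95% interval of 0.93 to 1.47 (limma adjusted p = 1.37e-04). Against WT DMSO it was 2.44 times as high, a difference of 1.25 ± 0.12 (limma adjusted p = 4.39e-05). Both calls were made in all 22 alternatives, and the first difference was 1.15 without WT Tu replicate 1. Between WT Tu and WT DMSO the difference was 0.05, with an interval of -0.22 to 0.32.

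The upstream sequence of Lpin2 is shown since this gene had the largest difference of the members. It is chr17:71183282-71183531, plus strand, the first of 3 RefSeq windows, with capitals marking an E-box.
Lpin2: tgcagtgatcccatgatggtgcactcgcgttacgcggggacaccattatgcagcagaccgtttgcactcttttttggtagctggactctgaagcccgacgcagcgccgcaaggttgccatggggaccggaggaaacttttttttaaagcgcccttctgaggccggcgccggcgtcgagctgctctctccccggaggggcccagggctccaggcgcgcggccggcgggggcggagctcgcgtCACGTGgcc
The E-box CACGTG, which reads the same on both strands, starts 9 bases before the start site and is in 7.15% of all windows. Another window of Lpin2 holds a match to the C/EBP-ATF element TGATGNAAN, bound by ATF4 with a C/EBP partner, and 3 CCAAT boxes. That element is in 3.954% of all windows and in none of the other members that had a window.

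Lpin1 (ENSMUSG00000020593, chr12:16535669-16610966, minus strand), a lipin induced in liver by fasting and glucocorticoids, had 4.65, 2.79 and 2.91 FPKM in WT DMSO. It had 4.26, 2.84 and 2.16 FPKM in WT Tu libraries and 4.81, 5.08 and 4.49 in CKO Tu. Replicate 1 of each WT group was well above the other two libraries of its group, and all CKO Tu libraries were above all WT Tu libraries. The difference between CKO Tu and WT Tu was 0.53, with a 95% interval of 0.08 to 0.99, and did not pass (limma adjusted p = 0.0642). It passed in 6 of 21 alternatives, among them without WT Tu replicate 1 (0.73, limma adjusted p = 0.0116) and without WT DMSO replicate 1 (limma adjusted p = 0.0377). CKO Tu exceeded WT DMSO by 0.40 ± 0.20 (limma adjusted p = 0.127), and without WT DMSO replicate 1 this was 0.59 and passed (limma adjusted p = 0.0347).

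Lpin3, the third lipin, had 5.94 ± 0.72 FPKM in WT DMSO, 11.6 ± 0.73 with tunicamycin in WT and 10.7 ± 1.3 in CKO cells (SD, n = 3). It rose by 0.87 ± 0.10 in WT Tu (limma adjusted p = 2.87e-04), where Lpin1 and Lpin2 did not pass, and differed between the treated groups by -0.11 ± 0.10 (limma adjusted p = 0.418). Lpin1 made up 16.5%, 8.67% and 8.91% of lipin FPKM in WT DMSO libraries, 11.8%, 7.81% and 5.59% in WT Tu libraries and 6.75%, 7.08% and 7.27% in CKO Tu. Its share in CKO Tu was below that in WT DMSO in every library (exact two-sided permutation p = 0.1, 0.25 adjusted), and the WT groups overlapped. Ctdnep1 and Cnep1r1, the phosphatase complex that activates lipins, passed in neither of the comparisons of WT Tu with WT DMSO and of CKO Tu with WT Tu.

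The next genes take part in the same steps as the members. Selenoi, the ER ethanolamine transferase, had 4.67 ± 0.47, 6.25 ± 0.88 and 8.12 ± 0.70 FPKM in WT DMSO, WT Tu and CKO Tu. It was higher in WT Tu than in WT DMSO by 0.35 ± 0.10 (limma adjusted p = 0.0298, passed in 14 of 22 alternatives, not without WT Tu replicate 1 or WT DMSO replicate 2 or 3). CKO Tu was higher again by 0.34 ± 0.10 (limma adjusted p = 0.0310, passed in 17 of 22, not without WT Tu replicate 2 or 3 or CKO Tu replicate 1 or 2). The ethanolamine kinase gene Etnk2 was higher in CKO Tu than in WT Tu by 0.43 ± 0.12 (limma adjusted p = 0.0244), but not without a filter on low values, WT Tu replicate 1 or CKO Tu replicate 1 or 2. Etnk1 did not pass in any comparison and differed by 0.02 in WT Tu against WT DMSO and by -0.04 in CKO Tu against WT Tu. Ptdss2, which makes phosphatidylserine from phosphatidylethanolamine, differed by -0.22 ± 0.10 and -0.08 ± 0.10 in these comparisons. Pisd, which turns phosphatidylserine into phosphatidylethanolamine in mitochondria, differed by -0.17 ± 0.08 and -0.03 ± 0.08. Neither gene passed in either comparison. In CKO Tu against WT DMSO Ptdss2 was lower and passed, with means of 4.40 and 5.66 FPKM. Pcyt1b, the second choline cytidylyl transferase gene, was below the filter, with 1, 2 and 0 fragments per group.

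Beyond the members, 114 genes in 16 lists cover the neighbouring steps of phospholipid metabolism and ER membrane structure, and 94 of them were tested. In WT Tu against WT DMSO 27 were higher and 20 lower, with a median of 0.01, so 50.0% of the 94 were called against 33.6% of all genes tested. Between CKO Tu and WT Tu 27 were higher and 23 lower, with a median of 0.01 (53.2% called, against 38.3% of all genes). In CKO Tu against WT DMSO 32 were higher and 26 lower (61.7%, against 49.5%). With a filter of 5 FPKM the shares of all genes called in these comparisons were higher, at 43.0%, 46.5% and 59.6%. The lists were also chosen with earlier results known, so these shares are no test of enrichment.

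**Figure D4:**
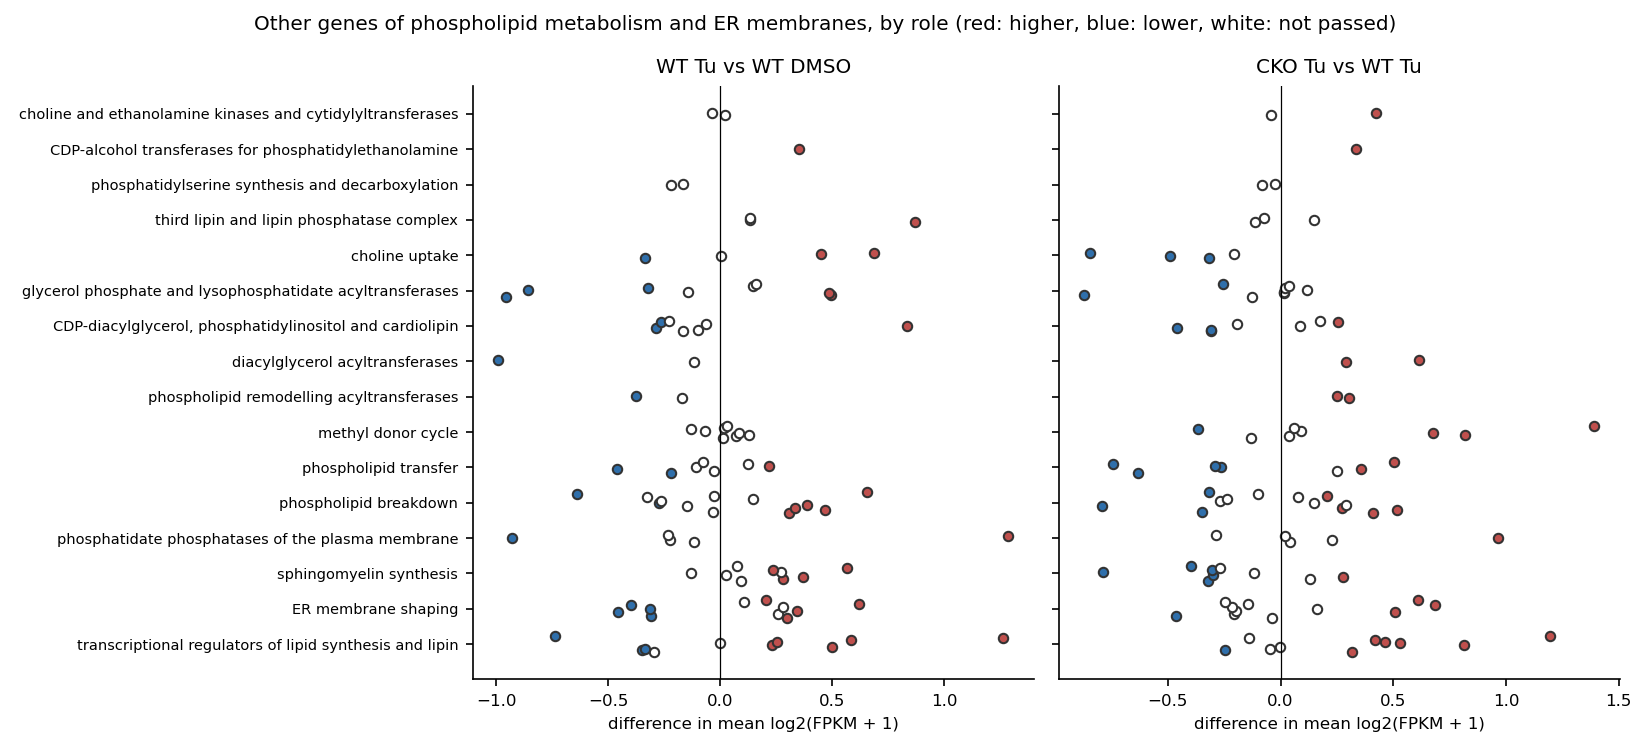
Differences in mean log2(FPKM + 1) of the tested genes of the 16 lists in WT Tu against WT DMSO (left) and CKO Tu against WT Tu (right), one point per gene; red and blue points passed the test. Points lie on both sides of 0 in each panel, with a median of 0.01 over the 94 genes in both.

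Choline and phosphatidate are precursors used by the members, and RNA of genes for choline transport and phosphatidate synthesis is given next. For the counts by list here and below, 17.7% of all genes tested were higher and 15.9% lower in WT Tu. In CKO Tu against WT Tu these shares were 18.7% and 19.6%. Each list is small, so its counts are a description only. Among choline transporter genes, Flvcr2 and Flvcr1 rose in WT Tu, by 0.69 ± 0.11 and 0.45 ± 0.08, and Slc44a1 fell, by -0.34 ± 0.08. Compared with WT Tu, Flvcr2 was lower in CKO Tu by -0.84 ± 0.11 and Slc44a1 by -0.32 ± 0.08 (the latter not without CKO Tu replicate 1). Among 8 acyltransferases of the glycerol phosphate and lysophosphatidate list, Gpam and Agpat2 fell in WT Tu, by -0.95 ± 0.07 and -0.86 ± 0.10. Gpat3 and Gpat4 rose, by 0.49 ± 0.11 and 0.49 ± 0.06, so 2 were higher and 3 lower. Of the 8, 2 were lower in CKO Tu than in WT Tu, among them Gpat3 by -0.87 ± 0.11.

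Phosphatidate and diacylglycerol also go into other lipids. Dgat2, which makes triglyceride, fell in WT Tu from 73.6 to 37.2 FPKM (-0.99 ± 0.18), 1 of 2 diacylglycerol acyltransferases tested, and both Dgat2 and Dgat1 were higher in CKO Tu than in WT Tu (0.62 ± 0.18 and 0.29 ± 0.08). Without WT Tu replicate 1 the difference of Dgat2 between the treated groups was 0.39. Its call was lost without any 1 of the 3 CKO Tu replicates, and that of Dgat1 without CKO Tu replicate 1 or 2. Of 7 genes for CDP-diacylglycerol, phosphatidylinositol and cardiolipin, 1 was higher and 2 were lower in WT Tu, and the cardiolipin synthase gene Crls1 rose from 37.3 to 67.5 FPKM (0.83 ± 0.09). CKO Tu had 1 of the 7 higher and 3 lower than WT Tu, Pgs1 by -0.46 ± 0.06, Cdipt by -0.31 ± 0.05 and Cds2 by -0.31 ± 0.06. Among 5 phosphatidate phosphatases of the plasma membrane family, Plpp5 rose by 1.28 ± 0.06 and Plpp3 fell by -0.93 ± 0.13 in WT Tu, and Plpp3 was higher in CKO Tu by 0.96 ± 0.13.

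The methyl donor cycle, which supplies the methyl groups used by Pemt, had 0 of 8 genes past the threshold in WT Tu. Against WT Tu, 3 of the 8 were higher in CKO Tu and 1 was lower. Chdh, which oxidizes choline towards betaine, had 1.08 FPKM in WT Tu and 4.47 in CKO Tu (1.39 ± 0.09). Mat2b was higher by 0.82 ± 0.09 and Ahcy by 0.67 ± 0.07, and Bhmt, which uses betaine, was lower by -0.37 ± 0.09.

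Further lists hold genes that remodel, move or break down phospholipids. Of 2 remodelling acyltransferases tested, Mboat7 fell in WT Tu (-0.38 ± 0.06), and Lpcat3 and Mboat7 were higher in CKO Tu than in WT Tu (0.30 ± 0.06 and 0.25 ± 0.06, the latter not without CKO Tu replicate 1 or 3). Of 7 transfer proteins 1 was higher and 2 were lower in WT Tu, with Stard10 at -0.46 ± 0.10, and 2 were higher and 4 lower in CKO Tu against WT Tu, with Mttp, which loads lipid onto lipoproteins, at 0.51 ± 0.07 and Pctp, which carries phosphatidylcholine, at -0.63 ± 0.07. Of 13 genes of phospholipid breakdown 5 were higher and 2 lower in WT Tu, led by Pla2g12a (0.65 ± 0.09) and Pla2g15 (-0.64 ± 0.10), and 4 were higher and 3 lower in CKO Tu against WT Tu, led by Gdpd1 (-0.79 ± 0.13) and Pnpla8 (0.52 ± 0.08). Sphingomyelin synthesis, which takes its head group from phosphatidylcholine, had 4 of 9 genes higher and 0 lower in WT Tu, against 17.7% higher and 15.9% lower among all genes, with Sgms1 at 0.57 ± 0.10 and Sptssa at 0.37 ± 0.07 (the latter not after removal of a GC trend). Another of the 4, Degs1 (0.23), passed in 6 of 22 alternatives and not without WT Tu replicate 1 (0.15, limma adjusted p = 0.0540). CKO Tu had 1 of the 9 higher and 5 lower than WT Tu, against 18.7% higher and 19.6% lower among all genes. In that comparison Cers6 was at -0.79 ± 0.09 and Sgms2 at -0.40 ± 0.06.

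Among 11 genes that shape ER membranes, 4 were higher and 4 lower in WT Tu. Lnpk, which stabilizes junctions of ER tubules, rose by 0.62 ± 0.08 and Reep5, which curves tubules, by 0.34 ± 0.08, while Reep4 fell by -0.46 ± 0.08 and Atl3, which fuses tubules, by -0.40 ± 0.09. In CKO Tu against WT Tu 3 were higher, Atl3 by 0.68 ± 0.09, Arl6ip1 by 0.61 ± 0.05 and Reep4 by 0.51 ± 0.08, and 1 was lower, Rtn4 by -0.47 ± 0.06. Of 10 transcriptional regulators of lipid synthesis and lipins 5 were higher and 3 lower in WT Tu. Of all genes tested 17.7% were higher and 15.9% lower there. Atf6 rose from 25.5 to 62.9 FPKM (1.26 ± 0.12), Xbp1 by 0.58 ± 0.05 and Insig1 by 0.50 ± 0.10, and Mlxipl fell by -0.74 ± 0.14. In CKO Tu against WT Tu 6 were higher and 1 was lower, with Mlxipl at 1.20 ± 0.14, Insig2 at 0.81 ± 0.07, Ppara at 0.53 ± 0.08 and Nr3c1, the glucocorticoid receptor gene, at 0.46 ± 0.08.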

How the data were processed

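The deposited values are FPKM, the fragments of a gene scaled to its length and to the size of the library, as the authors computed them. Per the submitters' processing notes, HISAT2 2.2.1, featureCounts 1.5.0-p3 and mm10 were used; the annotation release and strand setting are not given in the sources used here. The coordinates of the 10 members in the table equal those of GENCODE M21 (GRCm38). Each value was a whole number of fragments, within a tolerance of 0.001, in 100% of cases, so fragments were recovered, and the library sizes implied by the FPKM were 0.948 to 1.07 times the recovered totals.

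A gene was tested if it reached 1 FPKM in 3 or more libraries, which left 11858 genes. The log2(FPKM + 1) values of all 9 libraries were fitted with limma 3.58.1 in R 4.3.3, by group means and with the spread allowed to follow intensity. Tests were two-sided, with Benjamini-Hochberg adjustment per comparison and a threshold of 0.05. Adding 1 as a pseudocount understates changes of low genes. Differences are the first group minus the second, with SE and 95% intervals from limma. Fits were tested on simulated data. Within-library ratios were compared by exact permutation tests.

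The genes named are the 10 members, their direct neighbours, genes that check treatment, genotype and cell type, and, from each other list, some of the genes past the threshold with the largest changes (up to 4 in WT Tu against WT DMSO and up to 4 in CKO Tu against WT Tu). The members and lists were chosen with earlier results of these data known. A gene of the lists is not reported here. Alternatives changed the pseudocount (to 0.1), the filter (none, or FPKM of 5), the scaling (upper quartile, quantiles, total fragments), the model (2 groups alone, replicate block, constant spread, weighted libraries, voom on recovered fragments) and the libraries (each left out). A fit after removing the dependence on GC content (lowess, span 0.3) and one without genes on X and Y were chosen after seeing the data.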

Additional observations from a re-analysis of the deposited data

How the results depend on the processing

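Over 22 alternatives, of which 9 left out 1 library each, none of the called results of the 114 taken by the naming rule changed direction, and 74 of the 114 kept their side of the threshold throughout. Several alternatives cannot change a difference or its sign, only its p-value. They are the changes of filter, 2 groups alone, the replicate block, constant spread and the fit without X and Y. The same holds where the library left out belongs to the group not compared. Of 2484 single values 108 lost and 28 gained a call, 1 of them with a change of sign (Chpt1 after removal of the GC trend). The count of members called in CKO Tu against WT DMSO rose from 5 to 8 with a weight per library, while all genes called rose from 49.5% to 59.2%. With a pseudocount of 1 FPKM the difference in the Chka share of choline kinase FPKM changed sign for WT Tu minus WT DMSO, from -0.013 to 0.808 percentage points. For CKO Tu minus WT Tu it moved from -0.436 to -1.62. Chkb, the other part of this share, was below the filter. Scaling to total fragments moved the median of all genes in WT Tu against WT DMSO to -0.11, and 31.5% of the calls were then higher, against 52.7%; with upper-quartile scaling 42.3% were. In CKO Tu against WT DMSO the higher share was 51.1%, and 42.4% with upper-quartile scaling. The cause of the changes of sign below was not tested; all concern values that had not passed. In WT Tu against WT DMSO scaling to total fragments gave Chpt1 -0.099, Pemt -0.016, Lpin2 -0.076 and Etnk1 -0.10. Upper-quartile scaling gave Chpt1 -0.039, Lpin2 -0.0015 and Etnk1 -0.028, and quantile normalization gave Etnk1 -0.015. A weight per library gave Chpt1 -0.050 and Etnk1 -0.0069. For Chpt1 a pseudocount of 0.1 gave -0.00022 and voom -0.0071. Removal of the GC trend gave Pcyt2 0.0068, Chpt1 -0.20, Etnk1 -0.079 and Etnk2 0.060, and Chpt1 -0.062 in CKO Tu against WT DMSO. In CKO Tu against WT Tu scaling to total fragments gave Etnk1 0.012 and Pisd 0.018, and a weight per library gave Etnk1 0.035. Leaving out 1 library at a time, WT Tu against WT DMSO ranged from -0.096 to 0.054 for Chpt1, -0.33 to 0.053 for Lpin1, -0.069 to 0.12 for Lpin2, -0.099 to 0.14 for Etnk1 and -0.15 to 0.056 for Etnk2, and CKO Tu against WT Tu from -0.0074 to 0.077 for Pcyt1a, -0.11 to 0.080 for Etnk1 and -0.051 to 0.0052 for Pisd.

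Same-numbered libraries did not deviate together over all genes tested, with correlations of -0.10 to 0.02. Each deviation is from a mean of only 3 libraries, so this cannot decide whether the numbers mark a shared animal or day. With the replicate number as a block 3, 5 and 5 members were called in the 3 comparisons, against 31.2%, 35.8% and 47.9% of all genes, and Lpin1 in CKO Tu against WT Tu passed at 0.53 (limma adjusted p = 0.0263).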
